A study of Mus musculus with 11 samples.

Results

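Egr1, Egr3, Arc, Nr4a1, Ier5, Dusp6, Homer1 and Per1 are genes that neurons induce when they are active, taken here outside the Fos and Jun family. They were chosen by name, with earlier results of these data known, and each was read at its transcript with the highest summed count. The shares of all tested genes given beside counts of the 8 are therefore no independent test. All 8 genes were found among the 4338 genes of the footprint table, and all 8 passed the filter on low counts that left 3835 genes for testing.

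Immediate early genes are transcribed within minutes of a synaptic or growth factor stimulus, without the need for new protein. Calcium entry and the ERK kinase cascade activate the factors CREB and SRF that are already bound at their promoters, and the products then act on transcription, on the synapse, or back on the kinases. In cortex they mark recently active neurons, and their messenger RNAs are short-lived, so the levels follow the animal's state in the period before the tissue was taken.

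Ribosome-protected fragments (footprints), the stretches of messenger RNA left after nuclease digestion because a ribosome sat on them, were counted in cortex of wild-type C57BL6 mice aged 7 to 8 weeks. The sham group (libraries 1, 2 and 5) had anaesthesia and exposed arteries but no filament, and the side of the cortex taken is not stated. No time from surgery to tissue was available here for the sham libraries. In the other animals a filament closed the right middle cerebral artery for 35 min and the tissue was taken after 3 h of reperfusion, from the side opposite the occlusion (contralateral, libraries 1, 4, 5 and 6) or from the occluded side (ipsilateral, libraries 2, 4, 5 and 6). The library numbers name the day of surgery, and the labels do not state whether libraries of a day share an animal or whether animals were pooled. All animals, sham included, were under isoflurane. The tissue entries of the ipsilateral samples name the contralateral hemisphere, against their titles and descriptions, and the titles were followed. Library totals over all 4338 genes ran from 64460 to 256657 counts in sham, 137372 to 571351 in contralateral and 35068 to 137341 in ipsilateral cortex. Ipsilateral library 4 is the shallowest, and there a count of 0 would allow a level of 85.5 CPM (counts scaled by library total and TMM factor; this limit by total alone). Of 24 neuron markers 23 were present, only Nefh being absent from the table, with summed levels of 23417 to 25113 CPM in sham, 22737 to 26150 in contralateral and 21537 to 25162 in ipsilateral cortex. No total RNA was analysed here, so amount of transcript and its translation cannot be told apart, nor can fewer cells of a type and less RNA per cell.

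Promoter sequence bears on these genes because CREB binds the cyclic AMP response element (CRE), whose core half-site reads TGACG on either strand. The RefSeq table of GRCm38.p6 held promoters for 5 of the 8 genes, in 7 windows of 250 bases before a start site. Shown are the windows of Nr4a1, Dusp6, Homer1 and Per1. Nr4a1 and Dusp6 had the largest ratios of highest to lowest CPM over the 11 libraries, 12.3 and 9.56. Both lows are in contralateral library 4 and rest on 2 and 4 counts. Homer1 varied little between the group means. Capitals mark the half-site TGACG or its reverse complement CGTCA.
Nr4a1, chr15:101266596-101266845, plus strand: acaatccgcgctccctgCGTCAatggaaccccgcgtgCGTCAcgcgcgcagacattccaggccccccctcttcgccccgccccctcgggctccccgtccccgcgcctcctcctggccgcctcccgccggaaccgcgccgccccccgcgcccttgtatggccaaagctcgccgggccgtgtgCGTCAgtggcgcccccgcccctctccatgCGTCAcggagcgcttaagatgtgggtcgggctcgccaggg
Dusp6, chr10:99262981-99263230, plus strand: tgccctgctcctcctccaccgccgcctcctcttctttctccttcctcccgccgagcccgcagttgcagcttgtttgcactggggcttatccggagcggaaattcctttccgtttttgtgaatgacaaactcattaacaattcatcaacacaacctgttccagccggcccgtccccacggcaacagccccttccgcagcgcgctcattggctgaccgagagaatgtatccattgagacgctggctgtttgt
Homer1, chr13:93303507-93303756, plus strand: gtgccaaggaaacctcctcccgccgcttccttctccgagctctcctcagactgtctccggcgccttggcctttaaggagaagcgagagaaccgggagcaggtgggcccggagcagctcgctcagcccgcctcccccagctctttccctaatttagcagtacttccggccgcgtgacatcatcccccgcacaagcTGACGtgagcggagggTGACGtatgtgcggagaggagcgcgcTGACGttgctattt
Per1, chr11:69099902-69100151, plus strand: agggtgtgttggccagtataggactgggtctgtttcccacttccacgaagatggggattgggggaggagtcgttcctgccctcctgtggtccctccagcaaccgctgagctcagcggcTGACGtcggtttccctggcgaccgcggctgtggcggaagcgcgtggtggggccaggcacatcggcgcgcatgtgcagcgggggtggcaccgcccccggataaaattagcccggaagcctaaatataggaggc

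The Nr4a1 window holds 4 half-sites, at 233, 213, 69 and 40 bases before the start, and 1 match to the EGR site GCGGGGGCG. The Homer1 window holds 3 half-sites, at 56, 40 and 14 bases, and the Per1 window 1 at 132 bases. A second Per1 window, chr11:69098699-69098948, holds 1 half-site and 1 E-box CACGTG, the sequence bound by the clock proteins. Dusp6, Ier5 and the second Homer1 window hold none of the motifs searched. Of all 32851 windows of this length, 17.8% hold a half-site on either strand, which includes the 1.55% with the full element TGACGTCA. A further motif count gave 2.57% for GCGGGGGCG, 0.536% for GCGTGGGCG, both on either strand, 6.02% for CACGTG and 1.47% for the CArG box bound by SRF. The full element, GCGTGGGCG and the CArG box occur in none of the 7 windows. A match is a run of letters and was not tested for binding.

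Among the transcription factors, Egr1 encodes a zinc-finger protein that passes activity on to later genes. It lies on chromosome 18 from 34859823 to 34864984 on the plus strand of mm10. Egr1 measured 636, 549.7 and 201 CPM in sham libraries 1, 2 and 5. Contralateral libraries 1, 4, 5 and 6 gave 168, 130.0, 168 and 167 CPM. Ipsilateral libraries 2, 4, 5 and 6 gave 172, 411, 285 and 525 CPM. The contralateral values lie in a narrow band below every sham library and, by a small margin for library 2, every ipsilateral one, while sham and ipsilateral cortex each span a wide range. The means were 462 ± 230.2 (SD, n = 3), 158 ± 18.9 (n = 4) and 348 ± 153 CPM (n = 4).

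Egr3, a relative of Egr1 (chromosome 14, 70077203 to 70082614, plus strand), had overlapping groups. It measured 126, 109.9 and 143 CPM in the sham libraries and 40.4, 84.1, 141 and 119 CPM in the contralateral ones. Ipsilateral libraries gave 67.3, 147, 161 and 172 CPM. The lowest values were in contralateral library 1 and ipsilateral library 2. Of the 28-base words of the Egr3 transcript 2.09% occur in another gene, Egr2 and Egr4 among them, so a small part of its counts is uncertain.

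Nr4a1, an orphan nuclear receptor also known as Nur77 (chromosome 15, 101254269 to 101274795, plus strand), had the fewest counts of the 8 genes, 142 in all. Sham libraries gave 188, 94.2 and 47.7 CPM. Contralateral libraries gave 80.8, 15.3, 33.6 and 44.4 CPM, and ipsilateral ones 44.8, 88.0, 49.5 and 146 CPM. Sham library 1 was highest and contralateral library 4 lowest, a 12.3-fold span, but the latter rests on 2 counts, for which the exact Poisson interval (95%) runs from 1.85 to 55.3 CPM. Such intervals cover counting error only.

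Of the synaptic effectors, Arc encodes a protein that promotes the internalisation of AMPA receptors (chromosome 15, 74669083 to 74672570, minus strand). Arc measured 416, 219.9 and 111 CPM in sham libraries 1, 2 and 5. Contralateral libraries 1, 4, 5 and 6 gave 87.6, 61.2, 138 and 72.8 CPM. Ipsilateral libraries 2, 4, 5 and 6 gave 164, 235, 99.0 and 379 CPM. Without day 5 the contralateral values would lie below all others, but contralateral library 5 stood above sham library 5 and ipsilateral library 5. The group means were 249 ± 155 CPM (n = 3) in sham, 89.9 ± 33.8 (n = 4) in contralateral and 219 ± 119.8 (n = 4) in ipsilateral cortex.

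Homer1 encodes a scaffold that ties metabotropic glutamate receptors to the postsynaptic density (chromosome 13, 93299635 to 93405129, plus strand). It measured 114, 173 and 154 CPM in sham, 94.3, 145, 229 and 172 CPM in contralateral and 67.3, 293, 173 and 155 CPM in ipsilateral libraries. The 3 groups overlap throughout, with means of 147 ± 30.0, 160.2 ± 56.0 and 172 ± 93.1 CPM. Activity induces the short form, Homer1a, which lacks the coiled coil and competes with the long forms. The table has 11 Homer1 transcripts with 7 different sets of counts, and the row used is a long form with a coding sequence of 1062 bases.

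The short form corresponds to transcript Homer1-204, of 186 codons, and 527 of its 558 coding bases lie in the long form too. It has 66.7% of the counts of the long form, and its row differed from those of 3 other short transcripts, which end in other exons, by at most 1 count in any library. The table therefore does not separate the induced form from the others. At the Homer1-204 row, in a fit of all transcripts, the log2 change was -0.22 ± 0.32 between ipsilateral and contralateral and 0.57 ± 0.32 between contralateral and sham cortex.

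Dusp6 encodes the phosphatase MKP-3, which removes the activating phosphates from ERK and so closes a feedback loop (chromosome 10, 99263231 to 99267489, plus strand). It measured 236, 236 and 148 CPM in sham and 121, 30.6, 111 and 88.8 CPM in contralateral libraries, with no overlap. Ipsilateral libraries gave 112, 147, 74.2 and 293 CPM. These straddle both other groups. The contralateral low, in library 4, rests on 4 counts (Poisson interval 8.34 to 78.3 CPM).

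Ier5, a nuclear protein linked to heat shock factor activity, is a single-exon gene (chromosome 1, 155096361 to 155099636, minus strand). It measured 94.2, 109.9 and 116 CPM in sham, 67.4, 99.4, 118 and 76.4 CPM in contralateral and 142, 88.0, 136 and 215 CPM in ipsilateral libraries. Its sham values were the tightest of the 8 genes, with a highest over lowest ratio of 1.24. Ipsilateral library 4, where Ier5 lay lowest on that side, rests on 3 counts.

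Per1 encodes a repressor of the circadian clock that CREB signalling can also induce (chromosome 11, 69095217 to 69109960, plus strand). It measured 102, 157 and 132 CPM in sham and 121, 53.5, 63.9 and 55.1 CPM in contralateral libraries. Ipsilateral libraries gave 97.1, 323, 74.2 and 215 CPM. Contralateral libraries 4, 5 and 6 lay below all the rest, and ipsilateral libraries 4 and 6 above all the rest, so the ipsilateral group was split. The shorter transcript Per1-202 has 74.3% of the counts of the row used, and in the fit of all transcripts it differed between ipsilateral and contralateral cortex by 1.30 ± 0.36 (log2, edgeR adjusted p = 0.120).

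**Figure D1:**
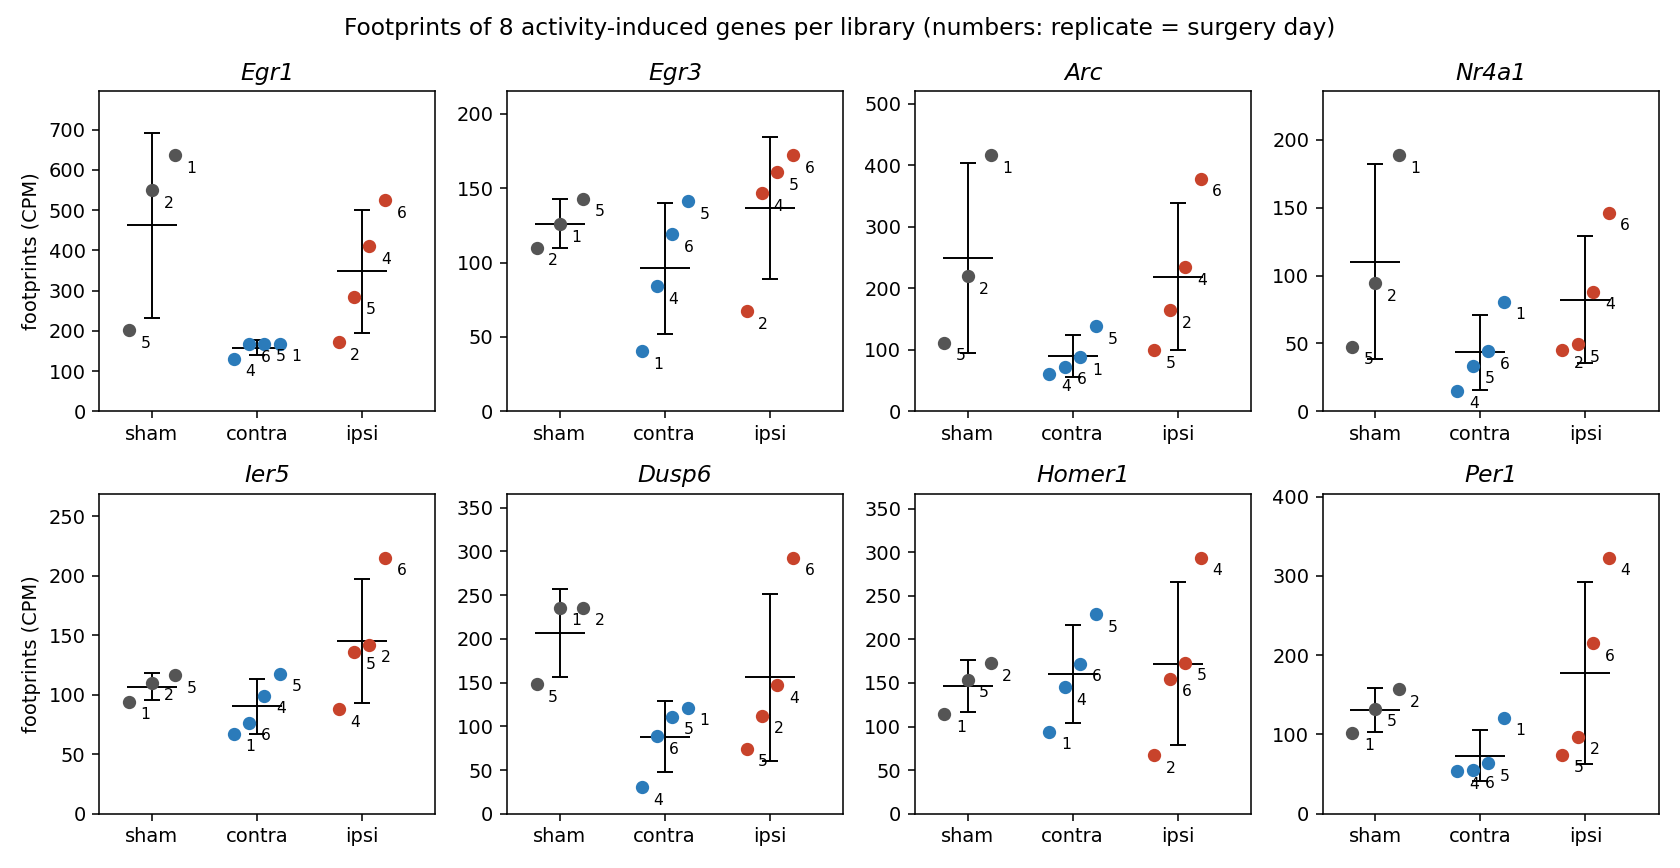
Footprints in CPM (vertical axes from 0) of the 8 genes in every library, grouped as sham, contralateral (contra) and ipsilateral (ipsi). Points are libraries, numbers beside them the day of surgery, horizontal bars the mean and whiskers the SD. For Egr1 the 4 contralateral points lie between 130.0 and 168 CPM, below every other library.

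Per kilobase of coding sequence, which allows genes to be set beside each other, the sham levels ran from 289 ± 144 CPM per kb for Egr1 through Arc (209.7 ± 130.1), Dusp6 (181 ± 44.1), Homer1 (138 ± 28.3), Egr3 (121 ± 15.8), Ier5 (116 ± 12.4) and Nr4a1 (61.1 ± 39.8) to Per1 (33.7 ± 7.11). The libraries of neighbours in this order overlapped at every step. In contralateral cortex Homer1 headed the order with 151 ± 52.7 CPM per kb and Egr1 followed at 99.1 ± 11.8. In ipsilateral cortex Egr1 led again with 218 ± 95.7, followed by Arc at 184 ± 101.

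The spread between libraries was set beside that of other genes. The median SD of log2 CPM over the 8 genes was 0.33 in sham, 0.49 in contralateral and 0.73 in ipsilateral cortex. Over the 2355 tested genes whose mean level lay in the same range, 78.6 to 323 CPM, it was 0.32, 0.26 and 0.44. The upper decile of those genes began at an SD of 0.65, 0.48 and 0.83. In sham 3 of the 8 genes lay above it, Egr1, Arc and Nr4a1. In contralateral cortex 5 did, Egr3, Nr4a1, Dusp6, Homer1 and Per1, and in ipsilateral cortex 1, Per1. The ipsilateral group had the lowest median total, 103476 counts against 194996 in sham and 227277 in contralateral cortex. The highest and lowest ipsilateral values of a gene differed by 2.44- to 4.36-fold.

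The comparison of contralateral with sham cortex asks whether the unoccluded hemisphere of an animal with an occlusion differs from that of an animal without. The edgeR quasi-likelihood test called 0 of the 8 genes, and 0% of all 3835 genes passed. At an unadjusted p under 0.05 stood 5 of the 8, Egr1, Dusp6, Nr4a1, Arc and Per1, all lower in contralateral cortex. Of all tested genes 5.66% stood at that level, and 3.13% were lower there. The log2 change was above 0 for 1 of the 8 genes and for 49.3% of all tested genes, with medians of -0.99 and -0.0040. Libraries of the 2 groups did not overlap for Egr1 and Dusp6, in a comparison where 4.30% of all tested genes lay lower without overlap.

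The log2 change of Egr1 was -1.50 ± 0.39 (SE, 95% interval -2.35 to -0.65, edgeR adjusted p = 0.663). For Arc it was -1.51 ± 0.53 (interval -2.71 to -0.32, adjusted p = 0.798) and for Nr4a1 -1.46 ± 0.45 (interval -2.40 to -0.52, adjusted p = 0.701). Dusp6 had -1.14 ± 0.33 (interval -1.82 to -0.46) and Per1 -0.84 ± 0.34 (interval -1.53 to -0.16). These intervals lie below 0 for single genes but do not allow for the number of genes tested. Egr3 (-0.29 ± 0.30), Ier5 (-0.22 ± 0.29) and Homer1 (0.28 ± 0.29) had intervals that include 0. For Homer1 the interval ran from -0.30 to 0.86.

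The call for Egr1 depended on the tool and on day 5. DESeq2 gave Egr1 an adjusted p of 0.0432 and called no other of the 8, and limma-voom called 0 of them. Without sham library 5 edgeR called Egr1 (-1.90, adjusted p = 0.000141) and Nr4a1 (-1.88, adjusted p = 0.0424). Without all 3 libraries of day 5 it called Egr1 (-1.92, adjusted p = 0.00166) and Arc (-2.23, adjusted p = 0.00114). Without sham library 1 the values were smaller, -0.64 for Arc and -0.49 for Nr4a1, and neither passed. Over all alternatives the adjusted p of Egr1 ran from 0.000141 to 1.00, that of Nr4a1 from 0.0424 to 1.00 and that of Arc from 0.00114 to 1.00, with every log2 change of these 3 genes below 0.

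Only days 1 and 5 have both a sham and a contralateral library, and they differed. On day 1 contralateral cortex had 0.210 times the sham level of Arc, 0.265 times that of Egr1, 0.322 times that of Egr3 and 0.429 times that of Nr4a1. On day 5 the same ratios were 1.24, 0.836, 0.988 and 0.706. The median log2 difference over the 8 genes was -1.01 on day 1, with 1 gene above 0, and -0.13 on day 5, with 3 above 0. Per1 went the other way, at 1.19 times sham on day 1 and 0.483 times on day 5.

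**Figure D2:**
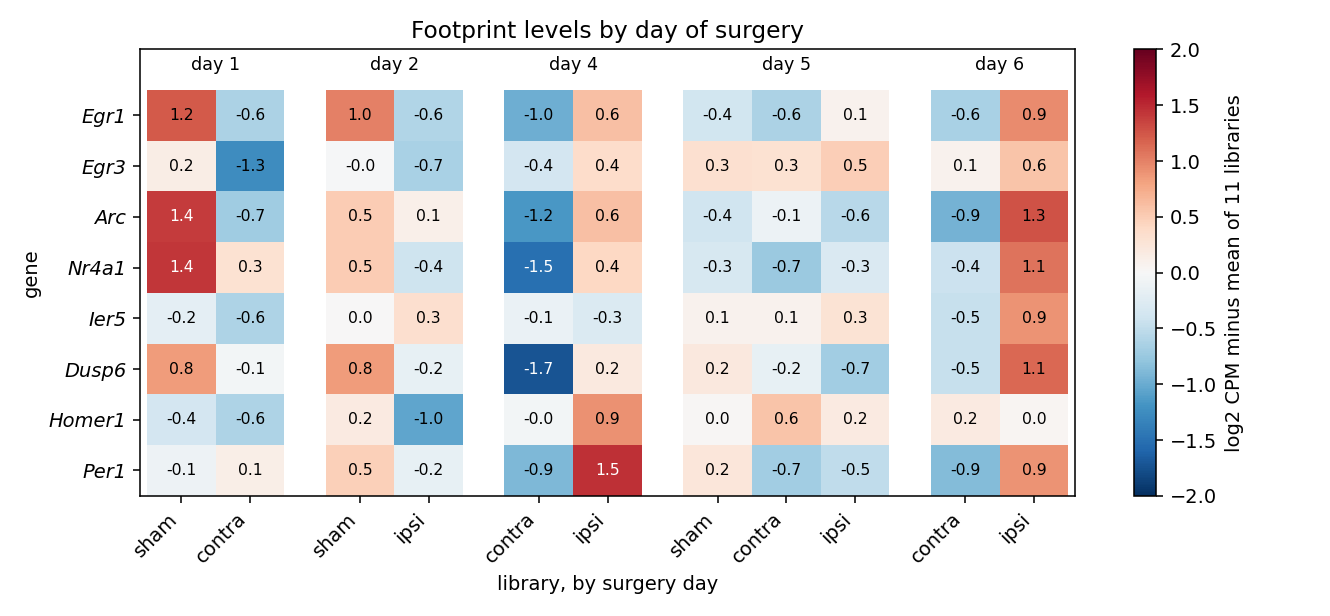
Log2 CPM of each gene (rows) in each library (columns, by surgery day) minus the mean of that gene over the 11 libraries, in red above and in blue below it. On days 4 and 6 the ipsilateral column is redder than the contralateral one for most genes, while the 3 libraries of day 5 differ little for Arc and Nr4a1.

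The comparison of ipsilateral with contralateral cortex sets the occluded hemisphere beside the unoccluded one. Here too edgeR called 0 of the 8 genes, where 0.365% of all tested genes passed. DESeq2 and limma-voom called 0 as well, though DESeq2 gave no adjusted p for Nr4a1. At an unadjusted p under 0.05 stood 5 of the 8, Per1, Ier5, Egr1, Dusp6 and Arc, all higher in ipsilateral cortex. Of all tested genes 7.61% stood at that level, and 4.85% were higher there. The log2 change was above 0 for 7 of the 8 genes and for 51.4% of all tested genes, with medians of 0.87 and 0.013. Egr1 alone did not overlap between the groups, in a comparison where 2.35% of all tested genes lay higher without overlap.

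Per1 showed the smallest p, with a log2 change of 1.17 ± 0.34 (interval 0.48 to 1.86, edgeR adjusted p = 0.174). Ier5 had 0.80 ± 0.28 (interval 0.24 to 1.36, adjusted p = 0.312) and Egr1 1.07 ± 0.40 (interval 0.20 to 1.94, adjusted p = 0.518). Arc had 1.27 ± 0.56, Dusp6 0.83 ± 0.36 and Nr4a1 0.92 ± 0.53, the last with an interval of -0.17 to 2.02. Egr3 (0.30 ± 0.32) and Homer1 (-0.22 ± 0.30) had intervals that include 0. Per1 passed without ipsilateral library 5 (1.38, adjusted p = 0.0436), and Arc passed without all libraries of day 5 (1.81, adjusted p = 0.00814). Without ipsilateral library 6 the log2 changes were 0.65 for Egr1, 0.74 for Arc, 0.29 for Nr4a1 and 0.19 for Dusp6. Among ipsilateral libraries, number 6 was the highest for these genes and for Egr3 and Ier5. Over all alternatives the adjusted p ran from 0.0436 to 0.999 for Per1 and from 0.00814 to 1.00 for Arc.

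Within days, the 2 hemispheres could be set side by side on days 4, 5 and 6. Arc was at 3.84 times the contralateral level on day 4 and 5.20 times on day 6, but at 0.717 times on day 5. Per1 was at 6.03, 3.91 and 1.16 times on days 4, 6 and 5. Egr1 was the steadiest of the strongly differing genes, at 3.16, 3.14 and 1.69 times on the same days. The median log2 difference of the 8 genes was 1.67 on day 4, 1.55 on day 6 and 0.18 on day 5, with 7, 7 and 5 genes above 0. All tested genes had medians of -0.05, 0.02 and 0.01. Day 4 pairs the shallowest library of the series, ipsilateral 4, in which the 8 genes have 3 to 14 counts each.

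**Figure D3:**
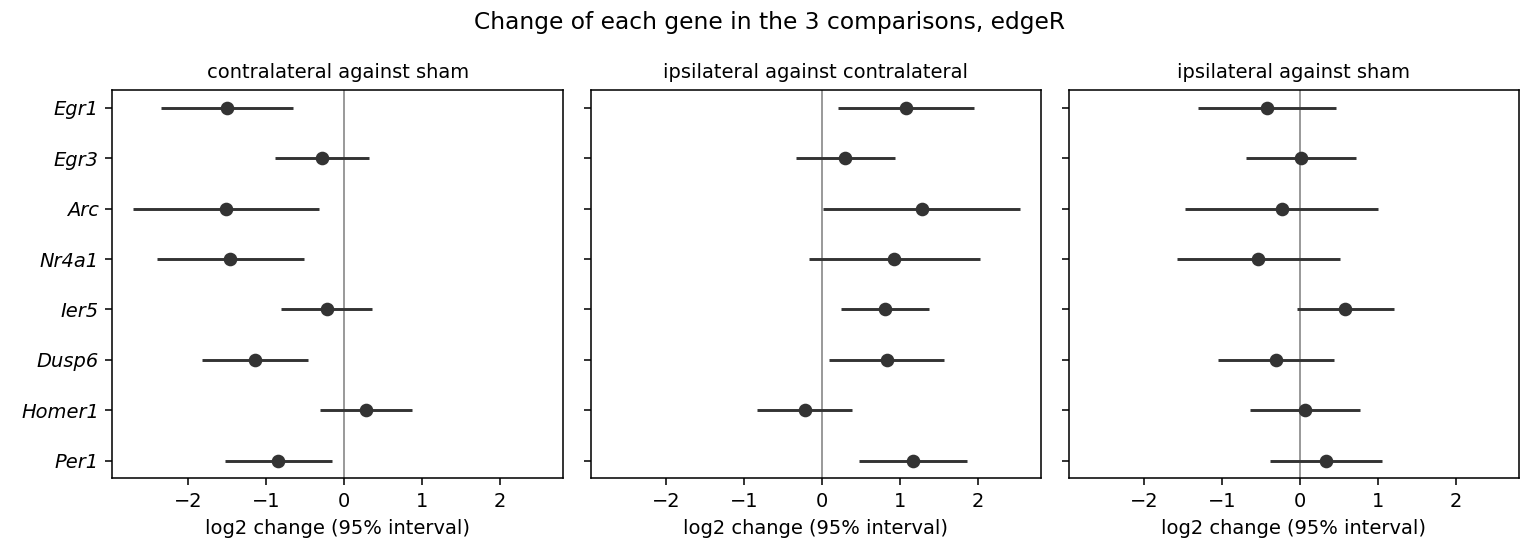
Log2 change of each gene (points) with its 95% interval (lines) from the edgeR fit of all 11 libraries, in the 3 comparisons; the grey line marks 0. In contralateral against sham cortex 5 intervals lie below 0, in ipsilateral against contralateral cortex 5 lie above 0, and in ipsilateral against sham cortex all 8 include 0.

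Between ipsilateral and sham cortex the question is whether the ischaemic hemisphere translates these genes differently from an unoccluded brain. The edgeR test called 0 of the 8 genes, where 0.104% of all tested genes passed, and limma-voom called 0. DESeq2 called neither Egr1 nor Arc, and it gave no adjusted p for Egr3, Nr4a1, Ier5, Dusp6, Homer1 and Per1. None of the 8 had an unadjusted p under 0.05 (7.74% of all tested genes did), and the groups overlapped for each of them, where 7.20% of all tested genes did not overlap. The log2 change was above 0 for 4 of the 8 genes and for 49.9% of all tested genes, with medians of -0.12 and -0.0011. Ier5 had the largest upward value, 0.58 ± 0.31 (interval -0.05 to 1.20, edgeR adjusted p = 0.693), and Nr4a1 the largest downward one, -0.54 ± 0.50 (interval -1.58 to 0.50). Arc (interval -1.48 to 1.00) and Egr1 (-1.31 to 0.45) were bounded only loosely, and a level 2-fold lower lies within both intervals.

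In this comparison the direction of several genes turned when 1 library was left out. Without sham library 1, where Egr1, Arc and Nr4a1 had their highest values, the log2 changes became 0.011 for Egr1, 0.61 for Arc and 0.41 for Nr4a1. Directions also turned with every library kept. An edgeR fit blocked on surgery day gave 0.12 for Arc and 0.046 for Nr4a1, but -0.39 for Egr1. Days 2 and 5 have both groups. On day 2 ipsilateral cortex had 0.313 times the sham level of Egr1, 0.389 times that of Homer1 and 0.476 times that of Nr4a1 and Dusp6, with only Ier5 above sham (1.29 times). On day 5 Egr1 was at 1.41 times, Nr4a1 at 1.04 times and Dusp6 at 0.501 times sham. The 3 comparisons share libraries, so their values are not independent of each other.

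The summed level of the 8 genes varied more between libraries than that of the 23 neuron markers. The neuron marker sum holds more genes at a far higher level, and the part of counting error in this difference was not tested. The sum of the 8 genes was 1912, 1649 and 1054 CPM in sham libraries 1, 2 and 5, then 781, 619, 1003 and 796 CPM in contralateral and 867, 1731, 1052 and 2099 CPM in ipsilateral libraries. As a percentage of the neuron marker sum this was 4.20 to 8.17 in sham, 2.60 to 3.83 in contralateral and 4.02 to 9.69 in ipsilateral cortex. The neuron markers themselves had median log2 changes of -0.14 in contralateral against sham and 0.0019 in ipsilateral against contralateral cortex. None of the 23 passed the edgeR test in any comparison, and 1 or 2 had an unadjusted p under 0.05 in each.

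Markers of other cells were summed in the same way. Astrocyte markers (16 of 16 in the table) summed to 26765 to 34501 CPM in sham, 28994 to 40313 in contralateral and 31867 to 33998 in ipsilateral cortex. In each comparison edgeR called 0 of them. Interneuron markers (9 of 12 in the table) summed to 4464 to 5670 CPM in sham, 4608 to 5591 in contralateral and 5233 to 5896 in ipsilateral cortex. Again edgeR called 0 in each comparison. At an unadjusted p under 0.05, 4 of the 9 were higher in ipsilateral than in contralateral cortex and 0 lower, where 4.85% of all tested genes were higher. Of 15 oligodendrocyte markers 10 were tested, and their sum was 3253 to 7488 CPM in ipsilateral against 2440 to 3495 CPM in contralateral and 2499 to 3251 CPM in sham cortex. Against contralateral cortex 4 of the 10 rose, among them Mbp, Mag and Cldn11, where 0.365% of all tested genes passed in either direction. Mobp, Ermn, Opalin, Olig2 and Sox10 are absent from the table. Microglia markers (10 of 16 in the table) summed to 1682 to 2289 CPM in ipsilateral, 1320 to 1545 in contralateral and 1021 to 1308 in sham cortex. Striatal markers (7 of 16 in the table, with Drd1, Drd2 and Adora2a absent) summed to 927 to 1492 CPM in sham, 589 to 1246 in contralateral and 532 to 1076 in ipsilateral cortex. In contralateral against sham cortex their median log2 change was -0.92, with 0 of 7 called by edgeR and 3 lower at an unadjusted p under 0.05, beside the median of -0.99 of the 8 genes. Of all tested genes 3.13% were lower there at that level. Globin genes, the 4 of 12 blood and leukocyte markers in the table, summed to 895 to 1324 CPM in sham, 566 to 989 in contralateral and 1041 to 2024 in ipsilateral cortex. Their median was -0.71 in contralateral against sham cortex, with 0 of 4 called and all 4 lower at an unadjusted p under 0.05, and Hba-a1 and Hba-a2 rose in ipsilateral against contralateral cortex. The part of these in the values of the 8 genes was not tested.

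Other genes of the same programme were read from lists of names, also chosen with earlier results of these data known. Their counts stand beside the share of all tested genes with an edgeR unadjusted p under 0.05. Between the hemispheres this share was 7.61%, with 4.85% higher in ipsilateral cortex. It was 7.74% in ipsilateral against sham and 5.66% in contralateral against sham cortex, in either direction. A list of 54 names covered further rapid primary response genes, with Cyr61 and Ctgf also entered as Ccn1 and Ccn2. Only 11 of these genes were in the table and 10 were tested. Between ipsilateral and contralateral cortex 1 of the 10 rose, Fos, which encodes the AP-1 subunit, while 6 of 10 were higher at an unadjusted p under 0.05 and 8 lay above 0 (median 0.74). Fos measured 161, 173 and 37.1 CPM in sham, 13.5, 7.65, 33.6 and 32.0 CPM in contralateral and 172, 205, 124 and 361 CPM in ipsilateral libraries, so it shared the low sham value on day 5 with Egr1, Arc and Nr4a1. Its log2 change was 3.03 ± 0.48 (edgeR adjusted p = 0.00609). Junb and Jun, partners of Fos in AP-1, passed in no comparison, and Junb measured 203 ± 82.6, 122 ± 48.7 and 221 ± 115 CPM in sham, contralateral and ipsilateral cortex. In contralateral against sham cortex edgeR called 0 of the 10, with 3 at an unadjusted p under 0.05 and 7 below 0 (median -0.29). In ipsilateral against sham cortex it called 0, with 2 at that level and a median of 0.079.

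Of 20 later activity-regulated genes, 15 were tested. Nptx2, a secreted pentraxin that gathers AMPA receptors, rose between ipsilateral and contralateral cortex (1.56 ± 0.28, edgeR adjusted p = 0.00247), while 5 of 15 were higher and 1 lower at an unadjusted p under 0.05, and 12 lay above 0 with a median of 0.32. In ipsilateral against sham cortex edgeR called 0 of the 15, with 4 higher and 1 lower at that level, 12 above 0 and a median of 0.11. In contralateral against sham cortex edgeR called 0 of the 15, with 2 at an unadjusted p under 0.05 and a median of -0.024.

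Of 27 ERK pathway kinases and feedback inhibitors 7 were tested, and edgeR called 0 in any comparison. At an unadjusted p under 0.05 stood 1 between the hemispheres (median 0.17), 2 in ipsilateral against sham and 0 in contralateral against sham cortex. The small GTPase gene Hras measured 76.6 ± 15.3, 72.8 ± 22.9 and 33.9 ± 27.6 CPM in sham, contralateral and ipsilateral cortex, and Dusp7, a phosphatase related to Dusp6, 64.4 ± 29.5, 42.8 ± 9.80 and 74.5 ± 51.4 CPM. Of 27 activity-dependent transcription regulators 10 were tested and edgeR called 0, with 0, 1 and 1 at an unadjusted p under 0.05 in the same order of comparisons. Mef2d, a calcium-responsive factor, measured 186 ± 40.2, 164 ± 20.7 and 190.4 ± 45.7 CPM, and Mef2a and the acetyltransferase gene Ep300 likewise missed the threshold.

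Of 20 other clock genes 13 were tested and edgeR called 0, with 1 at an unadjusted p under 0.05 between the hemispheres, 0 in ipsilateral against sham and 2 in contralateral against sham cortex. Medians were -0.035 between the hemispheres and -0.15 in contralateral against sham cortex. Cry2, a partner of the PER proteins, measured 176 ± 68.4, 129.7 ± 9.68 and 172 ± 69.1 CPM in sham, contralateral and ipsilateral cortex. The clock repressor gene Bhlhe41 measured 76.7 ± 9.13, 65.3 ± 5.47 and 99.7 ± 36.6 CPM. Whether Per1 differs from this list was not tested.

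Binding partners of Arc and Homer1 at the synapse (13 of 21 tested) had 0 edgeR calls. At an unadjusted p under 0.05 stood 0 between the hemispheres and 1 in each comparison with sham. Medians were 0.012 between the hemispheres and 0.0063 in contralateral against sham cortex. Grm5, the metabotropic receptor that Homer1 anchors, measured 373 ± 84.8, 454 ± 86.0 and 351 ± 80.8 CPM in sham, contralateral and ipsilateral cortex. Dnm3, a dynamin of the family that Arc binds, measured 266 ± 55.9, 251 ± 38.3 and 315 ± 77.4 CPM.

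**Figure D4:**
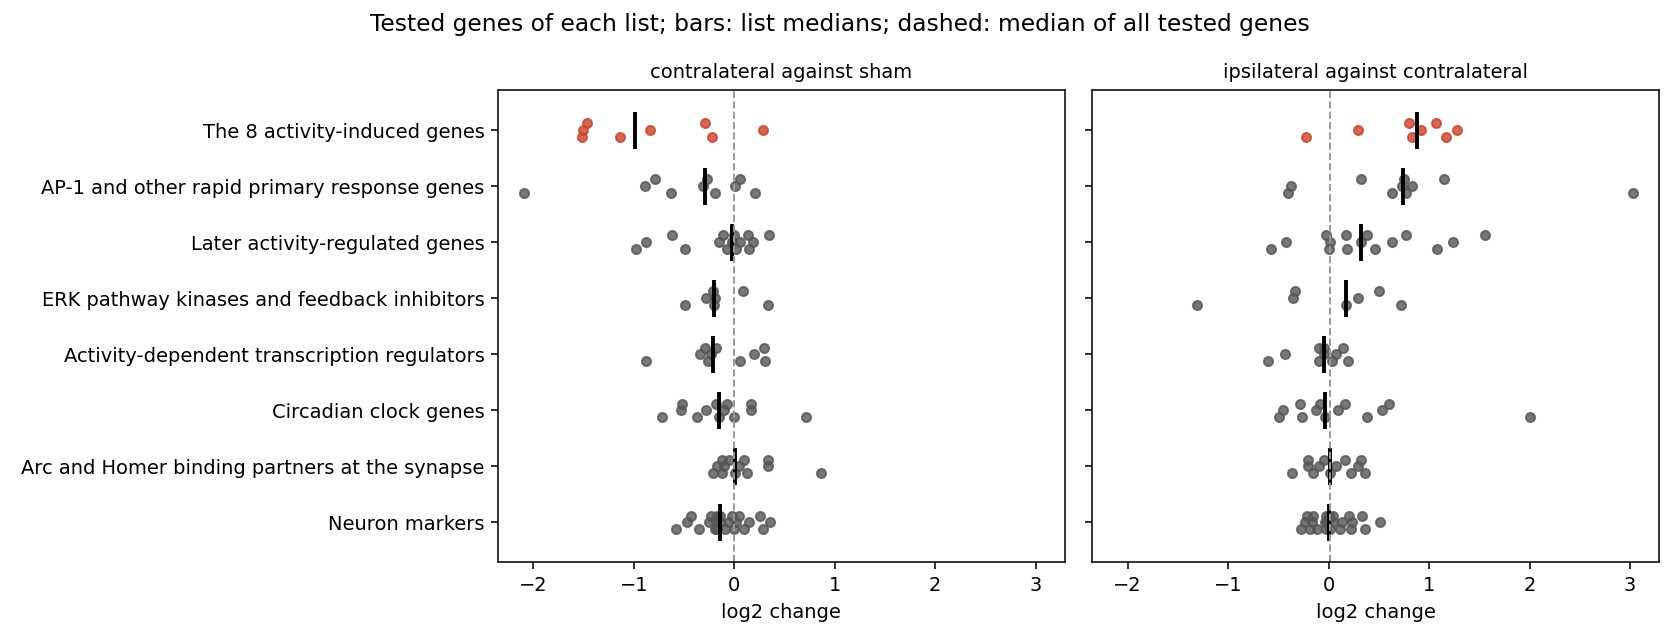
Log2 change of each tested gene (points) by list for contralateral against sham cortex (left) and ipsilateral against contralateral cortex (right); black bars are list medians and the dashed line the median of all tested genes. The 8 genes have medians of -0.99 and 0.87, the neuron markers -0.14 and 0.0019.

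The tested genes whose profile lay nearest to the average of the 8 were Irf2bpl, Cox7a2l, Capzb, Cox8a and Snrpn. Likeness was the root mean square difference of mean-centred log2 CPM over the 11 libraries, among 3827 genes with a mean of at least 20 CPM, and it ran from 0.19 for Irf2bpl to 0.29 for Snrpn. The 8 genes themselves lay 0.35 (Egr1) to 0.60 (Homer1) from their own average. Irf2bpl measured 137, 126 and 127 CPM in sham, 60.6, 53.5, 97.6 and 63.9 CPM in contralateral and 97.1, 176, 111 and 198 CPM in ipsilateral libraries, and it passed in no comparison.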

How the data were processed

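The authors deposited whole-number counts of ribosome-protected fragments per Ensembl transcript, 1 column for each of 11 libraries. Per the submitters' processing notes, Bowtie2, edgeR and mm10 were used. How reads were assigned to transcripts, trimmed or filtered, and whether strand was used, is not stated there. Of 9784 transcripts, each with at least 101 counts in all, 9736 matched GENCODE vM21 (mm10), and the other 48 (0.306% of counts) were left out. Isoforms of a gene often hold identical counts, so each gene was read at 1 transcript, that of highest summed count.

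Genes were tested with edgeR 4.0.16 (R 4.3.3): filterByExpr (minimum count 10), normalization by TMM, then 1 robust quasi-likelihood fit of all 11 libraries (3 sham, 4 contralateral, 4 ipsilateral) without a block, and Benjamini-Hochberg adjustment over 3835 genes at a threshold of 0.05. Standard errors are the log2 change over the square root of F, and intervals are at 95%. CPM are scaled by TMM. The p-values measure the spread between these libraries, for which pooling of animals is not stated. All 8 genes passed the filter, so the permutation test planned for filtered genes was not needed. Log2 CPM used a prior count of 2. Alternatives were DESeq2 1.42.0, its size factors, limma-voom (limma 3.58.1), no filter, the replicate block, 2-group fits, all transcripts as rows, and libraries left out. The edgeR code was tested on simulated data with 200 changed genes, in ipsilateral against sham cortex. It recovered 46.5% of 2-fold and 93% of 4-fold changes, with 7 and 13 false calls. A 2-fold change could thus often be missed. The changed genes were drawn from all 3835, so these rates need not hold for the 8 genes. Recovery in the other comparisons was not measured.

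The series' design text says that a replicate number marks a day of surgery, which pairs the libraries. Deviations from the group means correlated across genes at -0.139 to 0.224 (median 0.131) for the 7 same-number pairs and at -0.255 to 0.259 (median -0.0300) for the 33 others.

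Named genes were the 8 genes, any called gene of a list or otherwise the 3 with the smallest p between the hemispheres, direct partners fixed by name, and the 5 nearest profiles. Some genes under this rule are not reported here. The 8 genes and the lists were chosen with earlier results of these data known.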

Additional observations from a re-analysis of the deposited data

Results flagged for a closer look

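Among the contralateral and ipsilateral values of the 8 genes, 16 groups of 4 libraries, a library stood apart from the other 3 in 2 groups, by a gap above 0.829 of the group's range. Chance flags about 1 group in 20. Egr1 in contralateral library 4 measured 130.0 CPM, below the other contralateral libraries at 167 to 168 CPM. Per1 in contralateral library 1 measured 121 CPM, above the others at 53.5 to 63.9 CPM.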

How the results depend on the processing

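Over 24 alternatives the 8 genes gave 192 values against sham on the ipsilateral side, of which 164 kept direction and call, 191 between the hemispheres (187 kept both) and 192 in contralateral against sham cortex (186 kept both). Nr4a1 was filtered out when only the hemispheres were fitted. Values for which DESeq2 gave no adjusted p were counted as not called. The number of the 8 called in contralateral against sham cortex, 0, was 1 with DESeq2 and 2 without day 5, and between the hemispheres it was 1 without day 5. Leaving out single libraries gave 0 to 2, 0 to 1 between the hemispheres and 0 against sham ipsilaterally. With the replicate number as a block 0 of the 8 passed in any comparison, and no call changed. Sizes moved both ways under the block. Between the hemispheres Nr4a1 went from 0.92 to 1.32 ± 0.42. In contralateral against sham cortex Nr4a1 went from -1.46 to -1.28 ± 0.40 and Egr3 from -0.29 to -0.66 ± 0.33. Leaving out whole days was chosen after seeing the data.

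Of all genes, 4 passed in ipsilateral against sham cortex (10 with DESeq2, 10 with all transcripts as rows, 2 without day 1, 2 without day 2, 0 to 22 without single libraries). Between the hemispheres 14 passed (42 with all transcripts, 7 without the 2 shallowest libraries, 5, 9, 6 and 3 without days 1, 2, 4 and 6, and 4 to 26 without single libraries). In contralateral against sham cortex 0 passed (2 with DESeq2, 3 without day 5, 0 to 3 without single libraries). The extremes came without sham library 1 (0) and ipsilateral library 5 (22) in the first comparison, contralateral library 6 (4) and ipsilateral library 5 (26) in the second, and sham library 5 (3) in the last.

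Directions turned for 5 genes, Egr1, Egr3, Arc, Nr4a1 and Homer1, and the cause was not tested. In ipsilateral against sham cortex Egr3 had 0.01 but -0.11 with limma-voom, -0.20 with the replicate block, -0.063 without the 2 shallowest libraries, -0.020, -0.021, -0.0032 and -0.21 without days 1, 4, 5 and 6, and -0.22 to 0.33 without single libraries. Homer1 there had 0.06 but -0.13 with limma-voom, -0.16 with the replicate block, -0.077 without the 2 shallowest libraries, -0.13 and -0.15 without days 1 and 4, and -0.14 to 0.41 without single libraries. With the replicate block Arc had 0.12 and Nr4a1 0.046. Without day 1 Egr1 had 0.0065, Arc 0.61 and Nr4a1 0.42, and without single libraries they spanned -0.84 to 0.011, -0.77 to 0.61 and -1.17 to 0.41. Homer1 between the hemispheres had 0.11 without day 2 and -0.43 to 0.11 without single libraries, and in contralateral against sham cortex -0.019 with the replicate block.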

Other observations

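Csnk1d, the casein kinase that phosphorylates PER proteins, measured 1695 CPM in ipsilateral library 6 and 52.9 to 283 CPM in the other 10 libraries. It passed in no comparison (edgeR adjusted p = 0.698 between the hemispheres).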
